A study of Homo sapiens with 2 samples.

Results

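Among the 233546 clusters of RBM47 HITS-CLIP tags that the study listed, 5222 carried the location labels 3'UTR and intron together and no other label. They were chosen by that label alone, without regard to their tags, and made up 2.24% of the clusters (Wilson 95% interval 2.18% to 2.30%). All 5222 had a gene ID, and they fell in 815 genes, 10.6% of the 7712 genes in the table. The central observation is one of position. In genes that also held clusters labelled 3'UTR alone, 82.8% of the clusters with both labels lay beyond the last of these, at the 3' end of the gene's bound region. The labels come from an annotation, whose transcript models set where doubly labelled stretches can lie. How much of this share those models account for was not tested.

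RBM47 is an RNA-binding protein with RNA recognition motifs, known as a cofactor of APOBEC1 in C-to-U editing and as a regulator of splicing and mRNA stability. The 3'UTR is the part of an mRNA behind the stop codon, where RNA-binding proteins and microRNAs act on stability, localisation and translation. Many human genes use alternative last exons or alternative polyadenylation sites, so that a stretch that is 3'UTR in one transcript of a gene can be intron in another. A double label says that the authors' annotation put both names on one cluster. It does not say which transcript the tags came from.

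The cells were MDA231-BrM2a, a population derived from the breast cancer line MDA-MB-231 that metastasises to the brain and is not a single clone. They expressed a Flag-tagged wild-type RBM47 from a doxycycline-inducible promoter and received doxycycline at 1 ng/ml for 3 days. HITS-CLIP fixes a protein to its bound RNA with ultraviolet light, recovers the protein with the attached fragments, and sequences these, each unique fragment being a tag. The labels give 1 group of 2 libraries, replicate 1 and replicate 2, and whether these came from separate cultures was not stated. The protein was exogenous and tagged, and tags were not corrected for the abundance of each transcript. The study ran controls without crosslinking and with an empty vector as radiolabelled gels, and no library from such cells was analysed here, so the nonspecific part of a cluster's tags was not measured.

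The replicate 1 column of the table summed to 999047 tags and that of replicate 2 to 3489697, a ratio of 3.49. Every cluster had at least 5 tags in total and at least 1 in each library, so the table holds only part of each library. Intervals cover counting error only, and clusters of the same gene are not independent of each other. Coordinates are on hg18, the build named in the submitters' processing notes, as chromosome, start and end.

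The double label was much more frequent on 3'UTRs than on coding sequence. Of the 43856 clusters labelled 3'UTR either alone or with intron, 11.9% carried both (11.6% to 12.2%). Of the corresponding 22898 coding-sequence (CDS) clusters, 76 did, or 0.332% (0.265% to 0.415%). Clusters of the 5'UTR stood between them, with 65 of 1132, or 5.74% (4.53% to 7.25%).

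The 5222 clusters held 29889 tags in replicate 1 and 108710 in replicate 2. These were 2.99% and 3.12% of each library's cluster tags, with a mean of 3.05% ± 0.0873 (SD, n = 2). The share of tags was thus above the share of clusters in both libraries. By the authors' total, a cluster with both labels had a median of 11 tags, a 10th percentile of 5 and a 90th percentile of 49, and the deepest had 1830.

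In tags per cluster, the clusters with both labels stood between those labelled 3'UTR alone and those labelled intron alone, and nearer to the former. The median was 13 tags in the 38634 clusters labelled 3'UTR alone and 7 in the 99388 labelled intron alone. In replicate 1 the medians were 3 tags for both labels, 3 for 3'UTR alone and 2 for intron alone, and in replicate 2 they were 9, 11 and 5. At least 100 tags were held by 199 clusters with both labels (3.81%), against 6.38% of those labelled 3'UTR alone and 0.307% of those labelled intron alone.

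The mean of log2 tags was lower than in clusters labelled 3'UTR alone by a difference of -0.23 in replicate 1 and -0.28 in replicate 2 (mean -0.25 ± 0.03, SD, n = 2). It was higher than in clusters labelled intron alone by 0.66 and 0.84 (mean 0.75 ± 0.13, SD, n = 2). Both differences had the same sign in the 2 libraries and exceeded the spread between them. An exact two-sided sign-flip test over the libraries gave p = 0.5 for each, the smallest value that 2 libraries allow, so neither can pass a threshold. The sizes depended on the clusters used. The difference from 3'UTR alone was -0.15 with at least 30 tags and -0.47 with 1 cluster per gene and label. That from intron alone was 0.39 with at least 30 tags, 0.49 per nt of cluster length and 0.45 without replicate 2. The clusters with both labels were also close to 3'UTR clusters in length, with a median of 89 nt against 92 nt and 78 nt for intron alone.

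**Figure D1:**
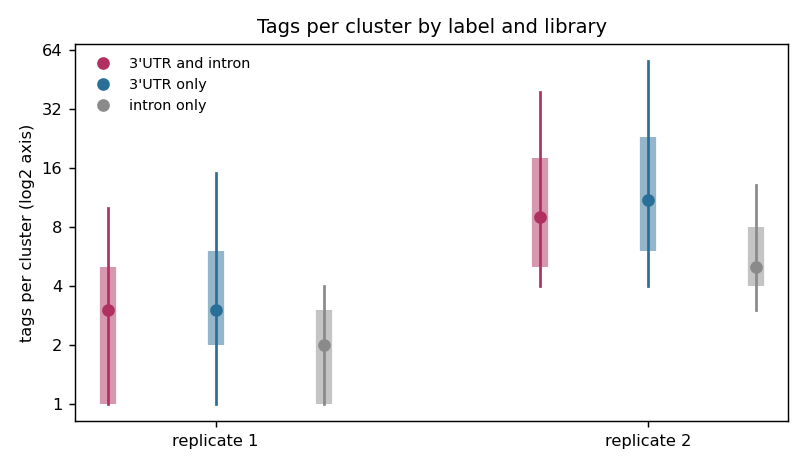
Tags per cluster (log2 axis) for clusters labelled 3'UTR and intron, 3'UTR alone and intron alone, in each library. Points are medians, boxes run from the 25th to the 75th percentile and lines from the 10th to the 90th. In replicate 2 the median of the clusters with both labels, 9 tags, lies between 11 and 5.

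The 25 clusters with the most tags are described first. The cluster with the most tags lay in SPCS3, a subunit of the signal peptidase complex that trims proteins entering the endoplasmic reticulum (chromosome 4, 177487826 to 177489215, plus strand). It held 391 tags in replicate 1 and 1441 in replicate 2, or 0.391 and 0.413 per 1000 cluster tags of the library. LMAN1, a lectin that carries glycoproteins from the endoplasmic reticulum to the Golgi, followed with 335 and 1183 tags (chromosome 18, 55146037 to 55146781, minus strand). The values per 1000, 0.335 and 0.339, were nearly equal in the libraries.

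LOX, the secreted enzyme that crosslinks collagen and elastin, held neighbouring clusters on the minus strand of chromosome 5. The one at 121428252 to 121429837 had 284 and 1105 tags in replicates 1 and 2, and the one at 121426864 to 121428251 had 222 and 735. TOR1AIP2, a membrane protein of the endoplasmic reticulum that activates torsin ATPases, held 291 and 1083 tags at 178076811 to 178077698 on the minus strand of chromosome 1. IL6ST, the shared signalling receptor of the interleukin-6 family known as gp130, had 3 of the 25 deepest clusters. The deepest of them, at 55271872 to 55272364 on the minus strand of chromosome 5, held 223 and 801 tags.

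DNAJC3, a co-chaperone of the endoplasmic reticulum, held 168 and 774 tags in its deeper cluster (chromosome 13, 95243987 to 95245242, plus strand) and 152 and 708 in the other. Both are among the least even of the 25, with 17.8% and 17.7% of their tags from replicate 1. SAMD8 and SGMS2 belong to the sphingomyelin synthase family. SAMD8 held 119 and 515 tags (chromosome 10, 76610573 to 76611891, plus strand), and SGMS2 held 113 and 448 (chromosome 4, 109052060 to 109052961, plus strand). REEP3, of a family that shapes the endoplasmic reticulum, had a pair of clusters with 96 and 434 tags in one and 109 and 387 in the other.

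The remaining clusters of the 25 lay in genes of varied roles. TGFB2, a growth factor of the TGF-beta family, held 112 tags in replicate 1 and 438 in replicate 2. TNFSF15, a cytokine of the TNF family, held 85 and 377, and IL7R, the interleukin-7 receptor alpha chain, held 86 and 370. PVRL3, the adhesion molecule now named NECTIN3, held 121 and 450. The leptin receptor LEPR held 90 and 366, and its overlapping neighbour LEPROT 85 and 336. HIPK3, a protein kinase, held 81 and 400, and MFAP3, a microfibril-associated protein, 109 and 468.

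Together the 25 deepest clusters lay in 17 genes and held 19787 tags, 14.4% of all tags in clusters with both labels. They were long, with a median of 827 nt, so the deepest clusters are also wide ones. Per 1000 cluster tags, 24 of the 25 were higher in replicate 2, the exception being the second cluster of LOX with 0.222 and 0.211. This lean is shared by deep clusters of the other labels. In clusters with at least 100 tags, replicate 1 held 20.7% of the tags with both labels, 20.7% with 3'UTR alone and 20.4% with intron alone. Over all clusters it held 22.3%.

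**Figure D2:**
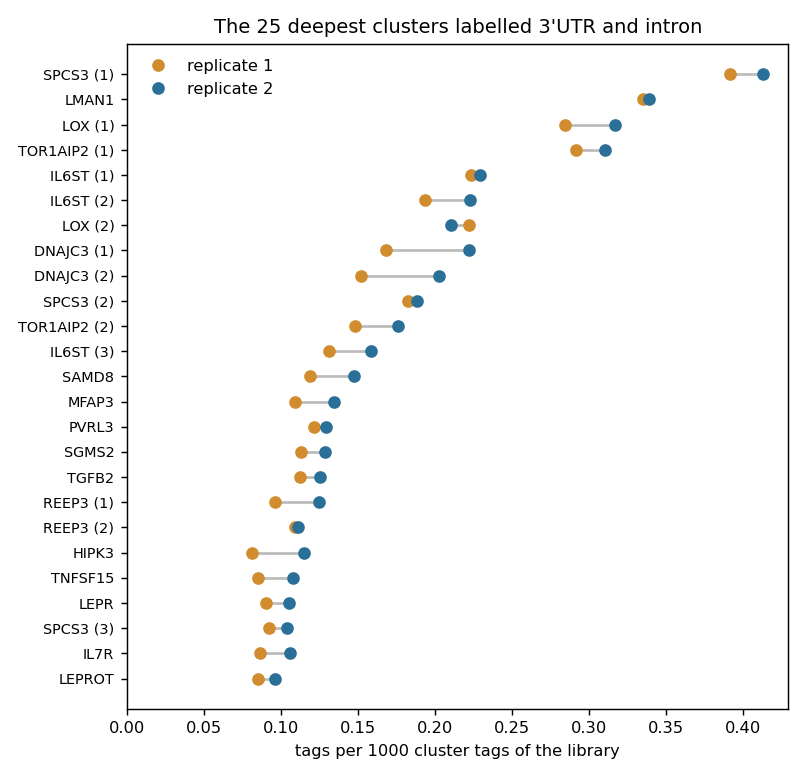
Tags per 1000 cluster tags of the library (linear axis) for the 25 deepest clusters labelled 3'UTR and intron, with numbers in brackets for several clusters of a gene. Each point is one library. In 24 of the 25 the replicate 2 point lies to the right of the replicate 1 point. Clusters of the other labels with at least 100 tags leaned the same way.

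The clusters were spread unevenly over genes. Of the 815 genes, 209 had 1 such cluster, 424 had 2 to 9, and 182 had at least 10. Those 182 genes held 3201 of the clusters, or 61.3%. The median gene had 3 clusters and 40 tags in them, and 25 genes had over 1000 tags. In the median gene the clusters with both labels held 27.8% of the gene's tags (quartiles 8.59% and 60.3%), in 250 genes more than 50%, and in 67 genes all of them. Across the 815 genes the libraries ranked the sums alike, with Spearman's rho of 0.960, a value across genes, which are not independent replicates.

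SPCS3 also led by gene. Its 4 clusters held 734 and 2718 tags in replicates 1 and 2, and these were 73.2% of all tags of the gene. The 26 clusters of TOR1AIP2 held 668 and 2478, and the 9 of IL6ST held 576 and 2226. The share of the gene differed widely, with 42.2% in TOR1AIP2 and 24.2% in IL6ST. It was 82.2% in DNAJC3, 82.8% in LOX, 81.3% in SGMS2 and 80.1% in SAMD8. In LMAN1 the 1 cluster with both labels held 19.3%, since its neighbour labelled 3'UTR alone held 5270 tags.

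Of the 10 genes with the most clusters, PTPN14 alone was also among the 10 with the most tags in them. DCUN1D5, which takes part in cullin neddylation, had 50 clusters that held 146 tags in replicate 1 and 437 in replicate 2. NAA38, whose gene ID now bears the symbol LSM8 and encodes an Lsm protein that binds U6 snRNA, also had 50, with 132 and 457 tags. STRN (striatin, a scaffold of protein phosphatase 2A) had 49 clusters, with 220 and 695 tags. In these genes many shallow clusters lay in a row.

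HOOK3, a dynein adaptor, had 44 clusters with 119 and 450 tags, and the phosphatase PPM1A had 40 with 173 and 584. The tyrosine phosphatase PTPN14 stood apart, since its 37 clusters held 477 and 1955 tags. GDAP2 had 36 with 218 and 906. PRTG, of the immunoglobulin superfamily, and ZMAT3, a zinc-finger RNA-binding protein, had 35 each, and the clusters held 92.6% and 90.7% of the tags of those genes.

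MDM4, an inhibitor of p53 and one of the genes whose splicing the study examined, completed the 10 genes with the most clusters. Its 33 clusters held 133 tags in replicate 1 and 411 in replicate 2, 70.8% of the 750 tags of the gene. Its 5 clusters labelled 3'UTR alone held 28 and 92 tags, and its 4 clusters labelled intron alone held 11 and 25. Most of the RBM47 tags on MDM4 were therefore in the doubly labelled stretch.

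Within genes, clusters with both labels averaged fewer tags than clusters labelled 3'UTR alone and more than clusters labelled intron alone. Of the 654 genes that held both labels together and 3'UTR alone, 430 (65.7%) had the lower mean log2 tags in the doubly labelled clusters, 342 of them in each library taken alone, whereas 132 were higher in each library. The median difference was -0.35 in replicate 1 and -0.39 in replicate 2 on the log2 scale. Of the 507 genes with an intron-only cluster, 395 (77.9%) were higher, 323 of them in each library. There the median difference was 0.50 and 0.77. The comparison within genes holds the gene in common, though not the transcript or the position along the gene. Within 250 nt beyond the last 3'UTR-only cluster, doubly labelled clusters had mean log2 tags of 1.72 and 3.57 in replicates 1 and 2. Clusters labelled 3'UTR alone within 250 nt in front of its end had 1.68 and 3.56. At 2000 to 4000 nt the values were 1.51 and 3.37 against 2.38 and 4.34. The part of position in the difference was not tested.

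The clusters with both labels were found mainly at the 3' end. In the 654 genes with a cluster labelled 3'UTR alone, 3624 of 4378 lay downstream of the last of these (82.8%, 81.6% to 83.9%). By tags, 80.0% of replicate 1 and 79.5% of replicate 2 lay downstream. In those same genes 382 of 15056 clusters labelled intron alone lay there (2.54%, 2.30% to 2.80%), and 14 of 2681 labelled CDS alone (0.522%). Introns and coding sequence mostly lie in front of the 3'UTR by the structure of a gene, so these shares were low by construction and give only the scale of exceptions. The 82.8% depends on the annotation as well, since its transcript models decide which stretches bear both labels. It describes where the labelled clusters lay and is no measure of a binding preference.

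Most genes held a single arrangement. In 510 of the 654 genes (78.0%) every cluster with both labels lay downstream, in 123 every one lay upstream, and 21 genes had both arrangements. Of the 531 genes with a downstream cluster, the first of them began at most 100 nt behind the last 3'UTR-only cluster in 245 (46.1%), with a median gap of 120 nt. Of the clusters with both labels, 95.4% of those in genes with a CDS cluster lay behind the gene's last CDS cluster. Likewise, 90.6% of those in genes with an intron-only cluster lay behind the last intron-only one. The structure of a gene largely sets these shares too, since a 3'UTR lies behind coding sequence and most introns.

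The neighbours gave the same order. Another cluster with both labels of the same gene was the next neighbour on the 3' side of 83.3% of them. A cluster of the same gene labelled 3'UTR alone stood directly on the 5' side of 584 (11.2%), but directly on the 3' side of 82 (1.57%). Intron-only clusters of the same gene were the next 5' neighbour of 42 and the next 3' neighbour of 61. The runs therefore mostly began behind 3'UTR clusters and seldom ended in front of them.

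SPCS3 shows the usual arrangement. Its 3 clusters labelled 3'UTR alone held 207 and 749 tags, and its 4 clusters with both labels began directly behind them and extended over 3083 nt. In LOX the gap was 1 nt, in STRN 10 nt, in MDM4 11 nt and in DCUN1D5 38 nt. All 49 clusters of STRN lay downstream, over 9221 nt, all 33 of MDM4 over 7468 nt, and all 50 of DCUN1D5 over 11294 nt. PPM1A was split, with 29 of its clusters downstream and 11 upstream.

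**Figure D3:**
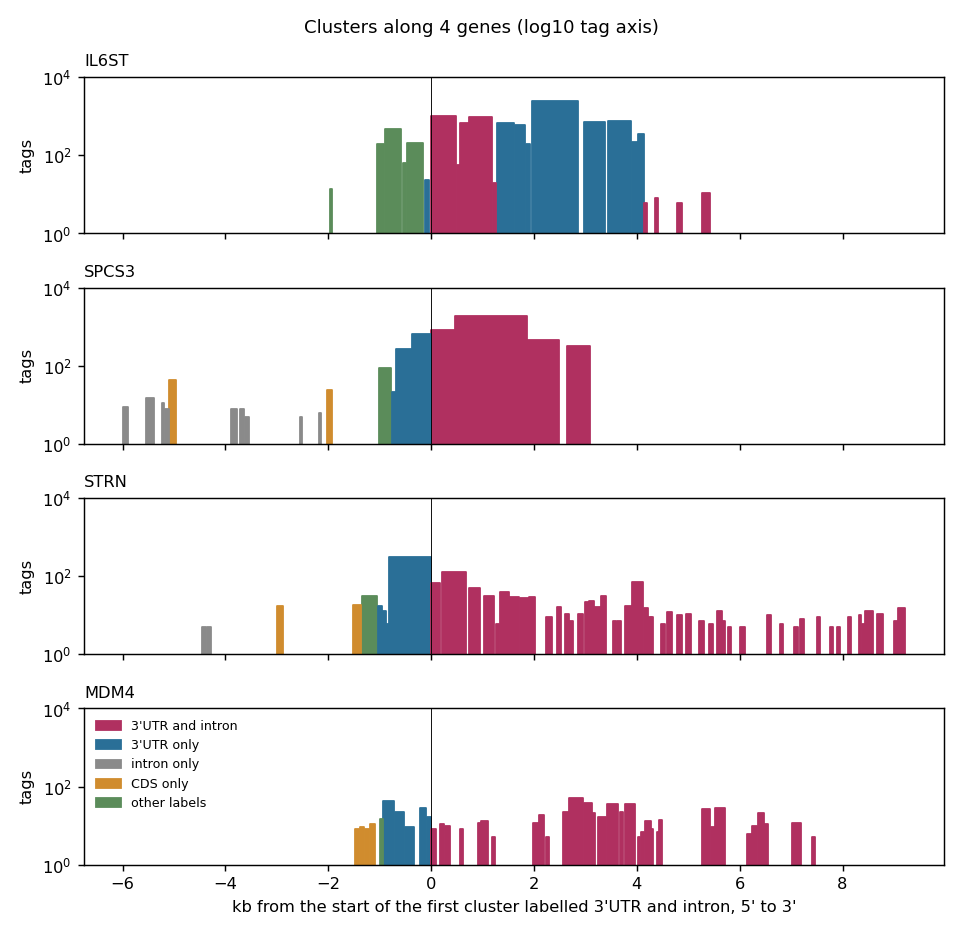
Tags per cluster (log10 axis) along IL6ST, SPCS3, STRN and MDM4, with the distance in kb from the start of the first cluster labelled 3'UTR and intron, read 5' to 3' (genes chosen after their values were seen). Bar width is cluster length and colour the label. In SPCS3, STRN and MDM4 every cluster with both labels lies behind those labelled 3'UTR alone, whereas in IL6ST 5 lie upstream and 4 downstream of the last one.

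Genes with upstream clusters are a minority but include deep ones. IL6ST had 5 clusters upstream of its last 3'UTR-only cluster, with 563 and 2194 tags, and 4 shallow ones downstream. TAOK1, a protein kinase chosen after its values were seen, had all 22 upstream, with 332 and 1345 tags. In PVRL3, 13 clusters with 250 and 1002 tags lay at 112335841 to 112339126, and 1 cluster with 46 and 195 tags lay at 112395078 to 112395742. Clusters of PVRL3 were thus found at a pair of sites that are more than 10000 nt apart.

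Only 6 of the 815 genes had clusters with both labels in groups more than 10000 nt apart, namely TOR1AIP2, FLT1, PVRL3, LEPR, ASPH and MAPK9 (ASPH and MAPK9 chosen after their values were seen). FLT1, a VEGF receptor known to have a shorter secreted form whose transcript ends within an intron of the full-length one, had 5 clusters at 27858009 to 27861016 on the minus strand of chromosome 13. They held 10 tags in replicate 1 and 35 in replicate 2. A single cluster at 27773210 to 27773256 held 2 and 3. These 6 clusters held 88.9% of the 54 tags of FLT1, and none of its clusters was labelled 3'UTR alone or intron alone. With so few tags, the order of the sites is not firmly measured.

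LEPR had 6 clusters at 65671466 to 65674276 on chromosome 1, with 207 and 839 tags, and 1 at 65875589 to 65875663, with 1 and 5. The former lie on the same strand among the clusters of LEPROT, so their assignment to one gene is uncertain. In all, 99 clusters with both labels (1.90%, in 37 genes) fell within the stretch spanned by the clusters of another gene on the same strand.

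Tags per cluster became fewer along the downstream runs. In the first 250 nt beyond the last 3'UTR-only cluster, clusters with both labels had mean log2 tags of 1.72 in replicate 1 and 3.57 in replicate 2. More than 4000 nt beyond it the values were 1.25 and 3.02, over 396 clusters in 55 genes. Because long runs come from fewer genes, the change was also taken within genes. In 218 genes with at least 6 downstream clusters, the farther ones had lower mean log2 tags than the nearer ones by -0.23 in replicate 1 and -0.24 in replicate 2 (mean -0.24 ± 0.01, SD, n = 2).

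The decline was not shared by all genes. The farther clusters were lower in both libraries in 109 of the 218 genes (50%) and higher in both in 46. Clusters labelled 3'UTR alone were counted likewise, with those of a gene split into a 5' and a 3' part. The 3' part was lower in both libraries in 135 of 297 genes with doubly labelled clusters (45.5%) and in 883 of 2121 genes without them (41.6%). The difference between these shares was not tested. STRN fell by 1.29 in replicate 1 and fell by 1.43 in replicate 2 on the log2 scale, and DCUN1D5 fell by 0.60 and fell by 0.46. ZMAT3 was higher far from the 3'UTR-only clusters, by 0.55 and 0.16. For clusters labelled 3'UTR alone, the difference of the 3' from the 5' part was -0.13 in replicate 1 and -0.06 in replicate 2 in 297 genes with doubly labelled clusters (mean -0.09 ± 0.05, SD, n = 2).

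**Figure D4:**
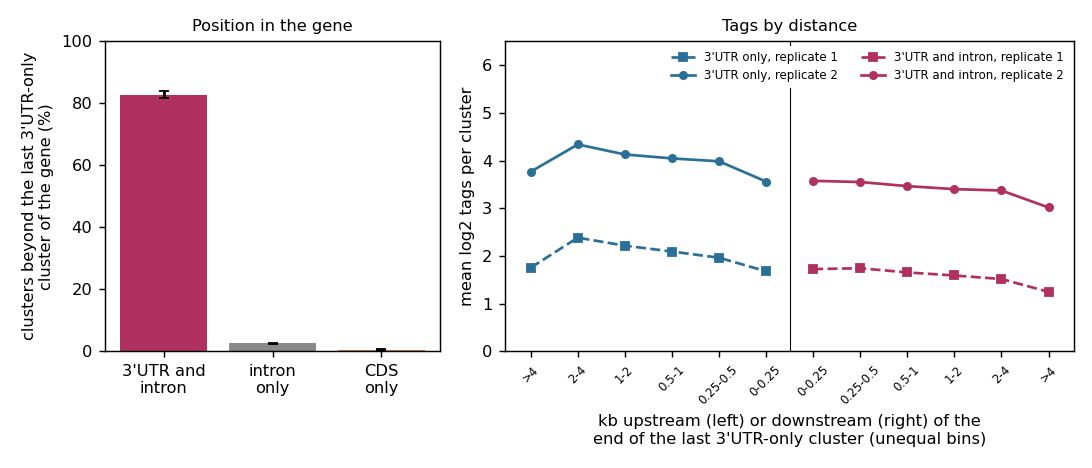
Left, percent of clusters of each label that lie beyond the last 3'UTR-only cluster of their gene, in genes that hold a cluster with both labels, with Wilson 95% intervals (82.8%, 2.54% and 0.522%). Right, mean log2 tags per cluster by distance in kb (unequal bins) from the end of that cluster, for each library, falling to 1.25 and 3.02 beyond 4000 nt. The annotation behind the labels sets where each label can lie.

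**Figure D5:**
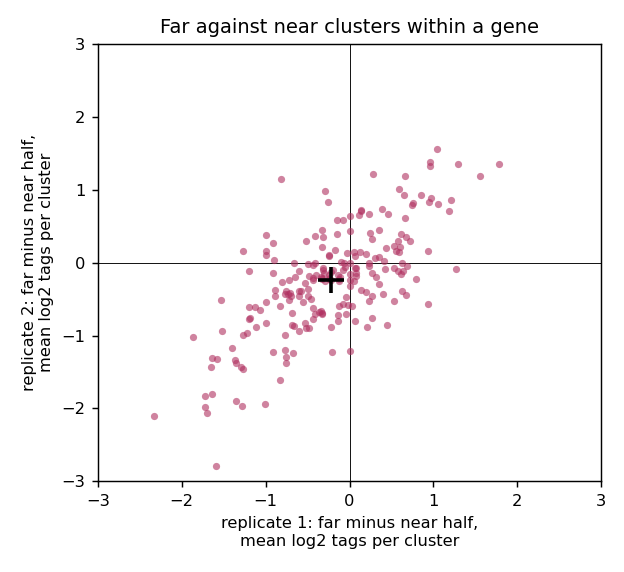
Difference in mean log2 tags between the farther and the nearer downstream clusters of a gene, replicate 1 on the horizontal and replicate 2 on the vertical axis, for 218 genes (points). The cross marks the mean over genes, -0.23 and -0.24, and 109 genes lie to the lower left of the origin.

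In the genes that held both doubly labelled and 3'UTR-only clusters, the former took a large share of the 3'UTR tags. Their tags were counted as 3'UTR tags by label, though the label does not give the transcript. The median over 654 genes was 39.3% in replicate 1 and 39.2% in replicate 2. In 232 genes (35.5%) the share was over 50% in both libraries. These genes were selected for holding a doubly labelled cluster. Over all genes the share is far smaller, with 137088 tags in doubly labelled clusters against 1462259 in those labelled 3'UTR alone, by the authors' total.

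The genes concerned had long 3'UTRs. In GENCODE release 44 on GRCh37, matched by gene symbol, the longest annotated 3'UTR had a median of 3643 nt (quartiles 2260 and 5322) in 797 of the 815 genes. It was 2062 nt (quartiles 1090 and 3436) in 5249 of 5355 genes with 3'UTR-only clusters and none of both labels. A 3'UTR of at least 2000 nt was found in 80.1% and 51.6% of them. The base composition differed little, with a median of 62.8% A and T against 62.0%. DCUN1D5, STRN and MDM4 were at the long end, with 11673, 11758 and 9419 nt. The part of 3'UTR length in the counts of clusters was not tested.

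Whether the annotation holds a 3'UTR inside an intron of another isoform was looked up for the same genes, counting 3'UTRs of at least 100 nt with at least 50% of their bases in the intron. Among genes whose doubly labelled clusters all lay downstream, 187 of 505 held one (37.0%, 32.9% to 41.3%). Where all lay upstream it was 59 of 118, or 50% (41.1% to 58.9%), and in the 21 genes with both arrangements it was 16 (76.2%, 54.9% to 89.4%). Among the comparison genes it was 1728 of 5249 (32.9%, 31.7% to 34.2%). In genes with no 3'UTR-only cluster it was 66 of 153 (43.1%, 35.6% to 51.1%). The interval of the downstream genes overlapped that of the comparison genes, while those of the other groups lay above it. By another measure the sets hardly differed, since the longest 3'UTR lay partly in an intron of another isoform in 20.6% of all genes with doubly labelled clusters and in 20.2% of the comparison genes. The part of the longest 3'UTR inside such an intron was 0% in DCUN1D5 and STRN and 6.03% in MDM4. It was 74.2% in HOOK3 and 100% in ZMAT3. The longest 3'UTRs of DCUN1D5, STRN and MDM4 thus lay little or not at all in such introns. Only protein-coding transcripts were read for these counts and shares. Introns of other transcripts were not examined, so the values do not show whether the annotation holds the double label there. This annotation is newer than the authors' own, whose version was not given in the sources used here.

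Gene groups that bear on RNA processing were examined by lists, and for comparison 10.6% of all genes in the table held a cluster with both labels. Of 37 hnRNP and other splicing regulators in the table, 6 did (16.2%). MBNL3, a muscleblind-type splicing regulator, had 32 clusters with 80 tags in replicate 1 and 277 in replicate 2, which were 73.1% of its tags. All 32 lay downstream of its 3'UTR-only clusters. CELF1 had 4 clusters with 28 and 91 tags, HNRPLL (now HNRNPLL) 5 with 8 and 42, and SYNCRIP 4 with 13 and 41.

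Of 13 SR proteins and their coregulators, 3 held such clusters, with a median of 25 tags a gene against 40 over all genes with these clusters. SRSF11 had 6 clusters with 18 and 69 tags, SRSF3 had 3 with 5 and 20, and SRSF4 had 1 with 1 and 7. In SRSF11 all 6 lay upstream of the last 3'UTR-only cluster. Of 23 cleavage and polyadenylation factors and genes listed with them, 4 did, with a median of 24.5 tags. CDK13, a kinase of the transcribing polymerase and not itself a cleavage factor, had 6 clusters with 17 and 81 tags. PAPOLG had 5 with 9 and 22, PAPOLA 3 with 5 and 15, and WDR33 1 with 1 and 4.

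The last lists were receptor tyrosine kinases, with 10% of their genes, and the cytoskeleton, with 5.88%. FLT1 and ROR1 (3 clusters, 5 and 29 tags) were 2 of 20 receptor tyrosine kinases. TPM4 (2 clusters, 24 and 76 tags) and ACTN1 (1 cluster, 5 and 19 tags) were 2 of 34 genes of the actin cytoskeleton and its regulators. Of the genes the study named, MDM4 was 1 of 6 followed for splicing, and 0 of 7 followed for mRNA level held a cluster with both labels. The lists are small, and none of these shares was tested against the share of all genes.

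Agreement between the libraries was measured across clusters. Spearman's rho of the tags in replicates 1 and 2 was 0.666 across the 5222 clusters, against 0.732 across clusters labelled 3'UTR alone and 0.220 across those labelled intron alone. These values are across clusters, which are not independent. Within strata of the total, rho was -0.301 at 5 to 9 tags, 0.227 at 10 to 29, 0.593 at 30 to 99 and 0.845 in the 199 clusters with at least 100. Clusters labelled 3'UTR alone had -0.308, 0.218, 0.598 and 0.894 in the same strata, close to these except in the deepest. The strata are set by the sum of both libraries, which by itself lowers rho in a narrow stratum, so these values do not measure how agreement depends on depth. Replicate 1 held at most 2 tags in 2438 of the clusters (46.7%), so single shallow clusters were imprecisely measured there.

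No cluster with both labels was called as split differently between the libraries. The split of each cluster was compared with the replicate 1 share of all cluster tags by a two-sided exact binomial test with Benjamini-Hochberg adjustment over all clusters. It called 0 of the 5222, where 0.0111% of all clusters were called, and a beta-binomial test also called 0. An unadjusted p under 0.05 was found for 173 of them (3.31%), against 3.04% of all clusters. The smallest adjusted p in the exact binomial test, 0.755, belonged to a cluster of SAMD8 on chromosome 10 at 76609773 to 76609887, with 3 tags in replicate 1 and 58 in replicate 2. The test compares libraries and not conditions. It has little power in shallow clusters, so 0 calls do not show that the clusters were split alike. For example, a cluster of SF3B3, chosen after its values were seen, held 6 tags in replicate 1 and 1 in replicate 2. The replicates of this cluster sum to more than its total of 6. Its exact binomial p was 0.00069 and its adjusted p 0.924. Calls were so rare among all clusters that 0 does not set the doubly labelled ones apart. The expected replicate 1 share, 22.3%, was the same for clusters of every depth. The observed share of the doubly labelled clusters was 26.1% at 5 to 9 tags and 20.7% with at least 100 tags.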

How the data were processed

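After mapping, the authors removed duplicate reads by a degenerate barcode, called the unique reads tags, and grouped overlapping tags into clusters with location labels. The submitters' processing notes name Novoalign and hg18, without roles. The deposited counts give the tags of every cluster, for each of 2 replicates and as a total, and were not normalized. In 940 clusters with both labels (18.0%) the replicates sum to more than the total. The total was used to filter and rank, and the replicate columns for comparisons, as log2 of the tags.

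Members were taken by an exact match of the label set. Members and lists were chosen with earlier results of these data known. Named were the 25 clusters with the most tags, the 10 genes with the most clusters, up to 4 genes a list, and any cluster called by the split test at 0.05. Genes were placed by listed coordinates and strand, and whether coordinates count from 0 or 1 is not known. Cluster length is end minus start. Current symbols came from RefSeq (811 of 815 genes matched). GENCODE was used by symbol only, and no coordinate was moved between builds. No sequence was read, since no hg18 genome was used here. Computations used Python 3.11.15, pandas 2.3.3 and scipy 1.17.1. The split test was checked on simulated data, with changes planted only in clusters with at least 100 tags. The tags were drawn from the binomial model that the test assumes, so spread between libraries beyond that model was not covered. Of the 5222 clusters with both labels 199 were that deep, so the check does not cover the others. Alternatives were tag minimums of 10 and 30, clusters whose replicates sum to the total, a wider label rule, each library alone, 1 cluster per gene, tags per nt and other tests.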

Additional observations from a re-analysis of the deposited data

How the results depend on the processing

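Of 63 alternative values, 0 reversed. The differences in mean log2 tags were judged by direction alone, which each of these alternatives kept, though their sizes often left the spread between libraries. The difference from 3'UTR-only clusters lay between -0.47 (1 cluster per gene) and -0.15 (30 tags). That from intron-only clusters lay between 0.39 (30 tags) and 0.87 (1 cluster per gene), with 0.45 without replicate 2. The split test called 0 clusters throughout. Of the other values, 26 moved. The share of clusters with both labels was 3.19% with a minimum of 10 tags, 4.26% with 30 tags, 2.11% where the replicates sum to the total, and 2.59% to 3.86% from one library alone. The share of tags was 3.45%, 3.63%, 2.95% and 3.24% to 3.59% in the same order. Agreement was 0.822 as Pearson's r of log2(tags + 1), and rho was 0.692 with 10 tags, 0.795 with 30 tags and 0.633 where replicates sum to the total. Genes lower than their 3'UTR-only clusters numbered 285 of 437 with 10 tags, 100 of 174 with 30 tags, and 172 to 376 from one library alone. Genes higher than their intron-only clusters numbered 160, 22 and 86 to 295 likewise; fewer genes could be compared. The median length was 120 nt with 10 tags and with 1 cluster per gene, 204 nt with 30 tags, and 99 to 157 nt from one library alone. The share upstream was 19.4% with 30 tags and otherwise between 16.7% and 18.0%, also without clusters inside another gene's stretch, an alternative chosen after seeing the data. No paired analysis was possible because the labels give a single group. The tag minimum of the table and the smaller depth of replicate 1 limit what can be said of shallow clusters.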

Other observations

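Chromosome 1 held 763 of the clusters labelled 3'UTR and intron (14.6%), against 10.6% of all clusters and 10.3% of those labelled 3'UTR alone. The plus strand held 55.0% of them, against 51.6% of those labelled 3'UTR alone. Clusters of the downstream class, of the upstream class and of genes without a 3'UTR-only cluster had mean log2 tags of 1.58, 1.67 and 1.61 in replicate 1 and 3.40, 3.50 and 3.44 in replicate 2. At least 100 tags were held by 3.17%, 4.77% and 5.69% of them in the same order. The fraction of tags from replicate 1 was 21.6% over the clusters with both labels, 21.1% over those labelled 3'UTR alone and 24.1% over those labelled intron alone, but 20.7%, 20.7% and 20.4% in clusters with at least 100 tags. A further 28 clusters (0.536%, in 10 genes) fell within the stretch spanned by the clusters of a gene on the opposite strand.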
